A study of Paracentrotus lividus with 19 samples.

Results

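A group of 55 unnamed transcripts was lower in every zinc-exposed set of sea urchin embryos than in the matching controls, to median ratios of 0.311 to 0.358 of the control level, and stayed near the control level with iron. The embryos were whole Paracentrotus lividus embryos at 24 h of exposure, about 6000 per sample, from which poly(A) RNA was sequenced. The unexposed controls (4 libraries) stood beside Fe2O3 particles at 5e-05 M, given as 4 mg/L of iron (4 libraries), the iron salt FeCl3 (4), ZnO particles at 1e-05 M, given as 0.8 mg/L of zinc (3), and the zinc salt ZnSO4 (4). The salts were matched to the particles in metal concentration. The molar and mass figures are as the labels state them and were not reconciled here. Titles give 3 sets, F1 to F3. F1 holds 2 libraries of each treatment but 1 of ZnO, whereas F2 and F3 each hold 1 of every treatment. What a set is, and whether libraries are from separate cultures, the labels leave unsaid. The p-values here therefore reflect spread among these samples, which could be technical.

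The members were chosen from the readout. Counts were scaled by the library total to CPM, and a feature had to be a numbered contig or a LOC identifier with a mean of at least 1 CPM over the 19 libraries. The ratio of the mean zinc CPM plus 1 to the mean control CPM plus 1 then had to be at most 0.5 in F1, in F2 and in F3. Of 63389 features in the table, 50186 met the name and CPM conditions, and 55 of these, or 0.11%, met the ratio in all 3 sets. They comprised 23 LOC features and 32 contigs. The deposited table does not pair these identifiers with gene names, so no role is given for any of them. Zinc against control is what chose them, and their zinc-to-control values below are a description without a test.

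Zinc is an essential ion that many enzymes and DNA-binding proteins hold in their fold, and cells bind an excess of it with metallothionein, a small cysteine-rich protein. In sea urchin embryos zinc is a classic animalizing agent: in excess it shifts embryos towards ectoderm of the animal pole at the expense of endoderm and mesoderm. Iron is a cofactor of oxygen-handling and electron-transfer proteins and is stored in ferritin. In whole embryos, fewer cells of a type and less of a transcript per cell cannot be told apart.

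The libraries held 24438369 to 32801015 counts. The lowest count of any member in any control library was 48. With zinc, 3 members (contig_00098, contig_22456 and contig_48998) had a count of 0, all in the same F1 ZnSO4 library. How reads with several matches were counted is not given in the sources used here. Near-identical contigs could therefore split reads, which concerns LOC589501.1.2 and LOC589501.2.2 among the members. Contig lengths were not used here, so CPM is compared between libraries and not between features.

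The sets overlapped in part. A ratio of at most 0.5 was reached by 452 eligible features in F1, 172 in F2 and 236 in F3, with 90 shared by F1 and F2, 114 by F1 and F3 and 97 by F2 and F3. In the opposite direction, 35 features had a ratio of at least 2 in every set. The median member ratio was 0.311 in F1, 0.354 in F2 and 0.358 in F3, against medians of 1.004, 0.992 and 1.00 over all eligible features. The lowest member ratios were 0.0264 in F1, 0.157 in F2 and 0.0892 in F3. Mean control levels of the members ran from 3.06 to 245.5 CPM with a median of 14.7 CPM, and the median over all eligible features was 4.76 CPM.

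Summed over the 55 members, the 4 control libraries held 1399 and 1389 CPM in F1, 1152 CPM in F2 and 1441 CPM in F3. With ZnO the sums were 278.1 CPM in F1, 427.7 CPM in F2 and 614.7 CPM in F3. With ZnSO4 they were 477.6 and 507.9 CPM in F1, 265.6 CPM in F2 and 278.2 CPM in F3. All 7 zinc sums lay below all control sums, and the order of particle and salt was opposite in F1 and in the other 2 sets. The Fe2O3 sums were 1432 and 1391 CPM in F1, 1124 CPM in F2 and 1445 CPM in F3, and those of FeCl3 were 1318 and 1374 CPM in F1, 1140 CPM in F2 and 1384 CPM in F3. The iron sums thus lay beside the control sum of the same set.

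**Figure D1:**
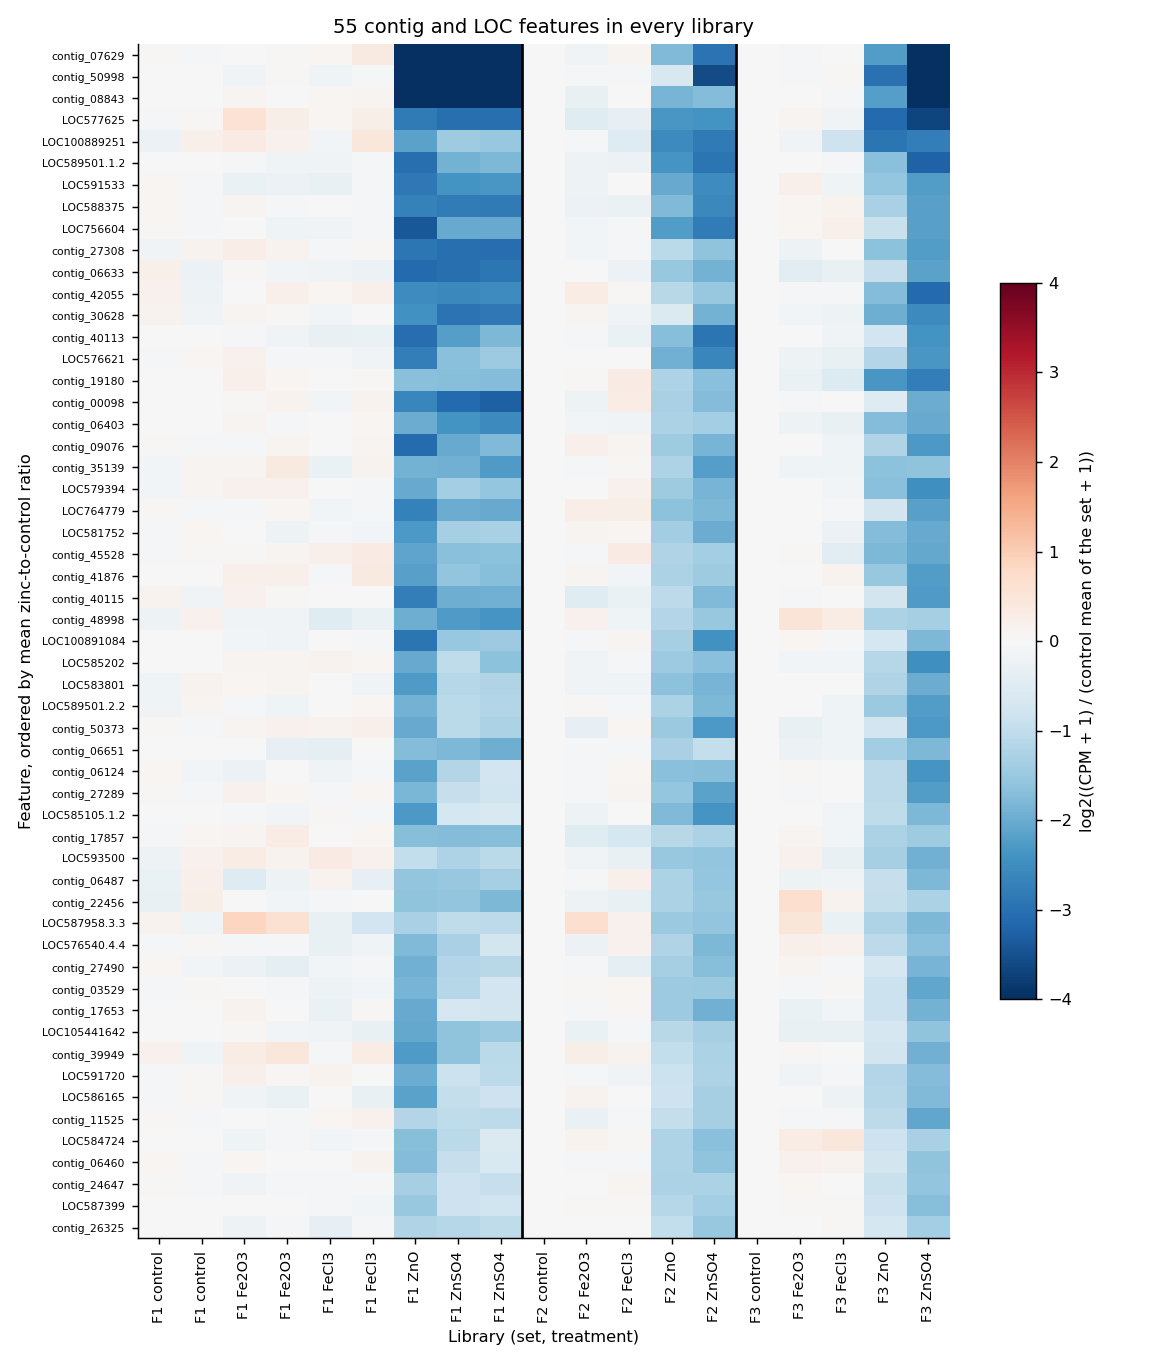
Log2 ratio of CPM plus 1 to the control mean of the same set plus 1, for the 55 members (rows, ordered by mean zinc-to-control ratio) in the 19 libraries (columns, grouped by set). Zinc columns are blue throughout while Fe2O3 and FeCl3 columns stay near 0; values under -4 are drawn at -4.

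The 3 members with the lowest mean ratio were numbered contigs whose level in F1 fell to counts of 15 or fewer with at least 1 form of zinc. contig_07629 was at 50.7 and 48.0 CPM in the F1 controls, 44.5 in F2 and 62.4 in F3. Under ZnO its level was 0.544 CPM in F1, 12.5 in F2 and 12.4 in F3, and with ZnSO4 at 0.200 and 0.244 CPM in F1, 4.87 in F2 and 1.87 in F3. Its zinc-to-control ratios were 0.0264, 0.212 and 0.128 in F1, F2 and F3, and the salt was below the particle in each set.

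contig_50998 was at 75.8 and 74.99 CPM in the F1 controls, 88.9 in F2 and 68.1 in F3. With ZnO it was at 2.47 CPM in F1, 56.4 in F2 and 7.81 in F3, and with ZnSO4 at 0.266 and 0.349 CPM in F1, 6.48 in F2 and 2.53 in F3. The F2 ZnO library stands out: its ratio to control was 0.639, while in the other 2 sets the particle ratios were 0.0454 and 0.127. With ZnSO4 the ratios were 0.0171, 0.0832 and 0.0511.

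contig_08843 was at 37.3 and 37.4 CPM in the F1 controls, 27.5 in F2 and 45.0 in F3. ZnO libraries held 0.363 CPM in F1, 6.79 in F2 and 8.96 in F3, and with ZnSO4 at 0.333 and 0.349 CPM in F1, 7.52 in F2 and 1.68 in F3. Its 3 F1 zinc libraries held 10 counts each.

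Among the LOC features the lowest mean ratios belonged to LOC577625, LOC100889251 and LOC589501.1.2. LOC577625 was at 8.47 and 8.99 CPM in the F1 controls, 5.85 in F2 and 16.9 in F3. Its zinc values were 0.363 CPM (ZnO) and 0.200 and 0.209 CPM (ZnSO4) in F1, 0.368 and 0.299 CPM in F2, and 1.07 and 0.394 CPM in F3. The set that was highest in controls was also the highest with ZnO and with ZnSO4.

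LOC100889251 was at 3.87 and 5.59 CPM in the F1 controls, 7.15 in F2 and 7.50 in F3. Its zinc values were 0.290 CPM (ZnO) and 1.13 and 1.01 CPM (ZnSO4) in F1, 0.409 and 0.150 CPM in F2, and 0.122 and 0.263 CPM in F3. This member had a ZnO value below ZnSO4 in F1 and in F3, a pattern found in no other member. In F3 the order rests on 4 counts with ZnO and 8 with ZnSO4.

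LOC589501.1.2 was at 21.3 and 21.9 CPM in the F1 controls, 18.0 in F2 and 49.0 in F3. Its ZnO values were 1.78 CPM in F1, 2.66 in F2 and 14.8 in F3, and with ZnSO4 at 5.12 and 5.48 CPM in F1, 1.497 in F2 and 4.301 in F3. All zinc libraries lay below the lowest control, and the particle was lower than the salt in F1 and higher in F2 and F3. The other contig of the same identifier, LOC589501.2.2, was also a member.

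**Figure D2:**
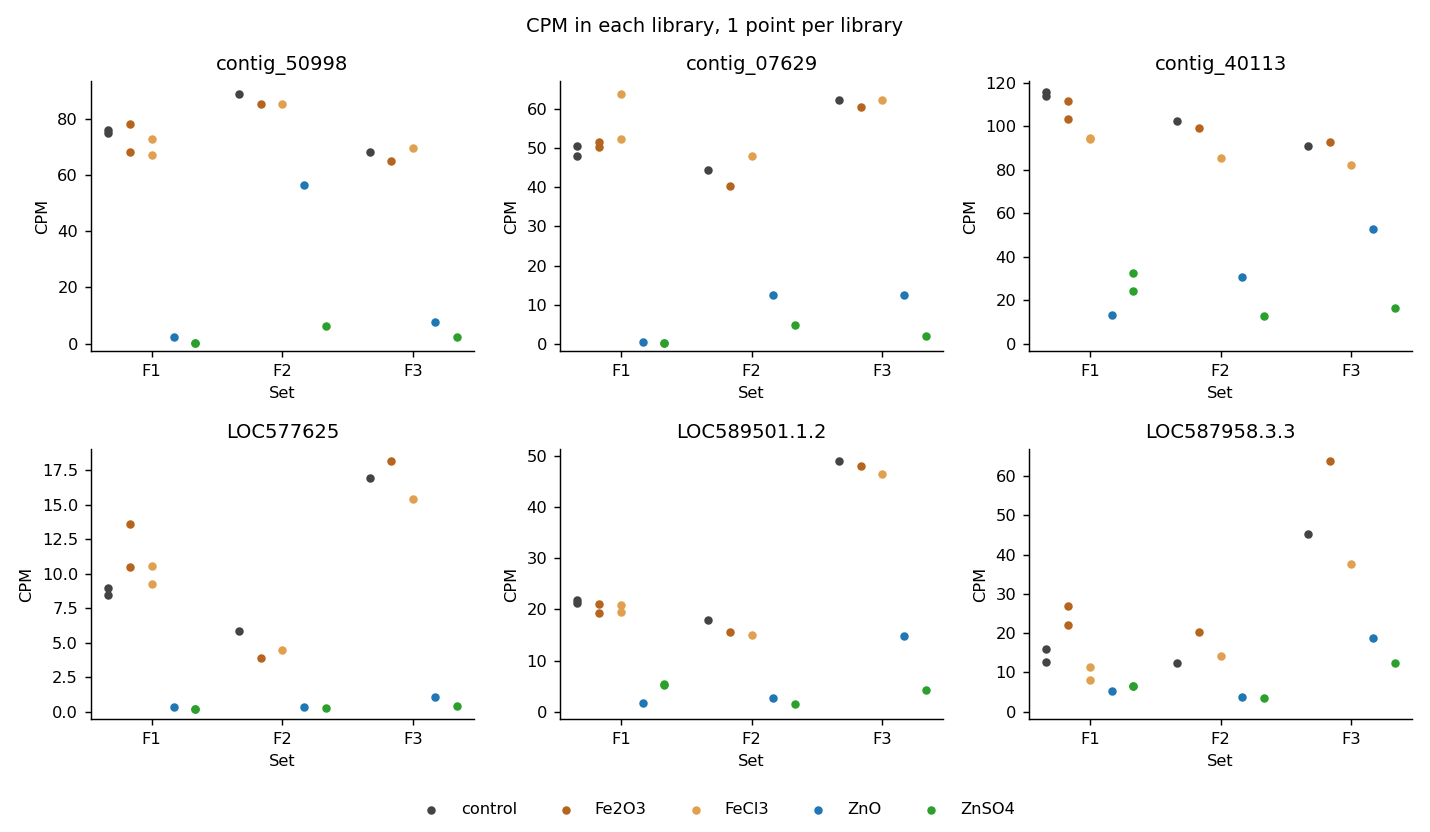
CPM of 6 members in each of the 19 libraries (1 point per library), by set and coloured by treatment, on linear axes. In most panels controls and both iron treatments overlap or lie close together, and zinc points lie below them. LOC587958.3.3 has Fe2O3 points above its controls, and FeCl3 points below them in F1 and F3. LOC577625 has Fe2O3 points above its controls in F1 and both iron points below control in F2. The F2 ZnO point of contig_50998 is at 56.4 CPM.

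The 6 members with the highest mean control CPM were LOC587399, contig_27289, contig_40113, contig_50998, contig_07629 and contig_03529, and their geometric mean zinc-to-control ratios ran from 0.0896 to 0.451. LOC587399 was at 253.7 and 253.4 CPM in the F1 controls, 203.1 in F2 and 271.6 in F3. ZnO libraries held 87.3 CPM in F1, 92.4 in F2 and 152.6 in F3, and with ZnSO4 at 143.9 and 145.6 CPM in F1, 78.6 in F2 and 82.8 in F3. The highest zinc value lay below the lowest control value.

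contig_27289 was at 125.5 and 118.8 CPM in the F1 controls, 125.5 in F2 and 106.1 in F3. With ZnO it was at 33.7 CPM in F1, 42.0 in F2 and 50.4 in F3, and with ZnSO4 at 64.1 and 69.4 CPM in F1, 27.5 in F2 and 21.7 in F3. The 2 forms of zinc changed places between F1 and the other sets here too.

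contig_40113 was at 114.0 and 115.7 CPM in the F1 controls, 102.3 in F2 and 91.1 in F3. Its ZnO values were 13.1 CPM in F1, 30.7 in F2 and 52.7 in F3, and with ZnSO4 at 24.1 and 32.4 CPM in F1, 12.7 in F2 and 16.6 in F3. In contig_40113 the particle was below both salt libraries in F1 and above the salt in F2 and F3.

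contig_03529 was at 44.6 and 48.0 CPM in the F1 controls, 30.8 in F2 and 36.8 in F3. ZnO libraries held 11.9 CPM in F1, 10.7 in F2 and 19.8 in F3, and ZnSO4 libraries 20.3 and 26.6 CPM in F1, 10.4 in F2 and 8.01 in F3. All its zinc values lay below its lowest control.

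Just inside the threshold, contig_26325 had a largest set ratio of 0.499, and contig_24647 and contig_06460 had 0.498. contig_26325 was at 21.6 and 22.3 CPM in the F1 controls, 22.3 in F2 and 19.96 in F3, with ZnO at 9.03, 10.7 and 11.8 CPM in F1, F2 and F3 and with ZnSO4 at 9.38 and 10.3, 7.22 and 7.09 CPM. Its highest zinc value was below its lowest control. contig_24647 was at 21.7 and 20.1, 16.6 and 13.4 CPM in the controls, with ZnO at 7.65, 6.26 and 6.80 CPM and with ZnSO4 at 11.4 and 10.7, 6.36 and 3.81 CPM. contig_06460 was at 17.5 and 15.8, 10.04 and 12.8 CPM in the controls, with ZnO at 4.35, 3.72 and 7.29 CPM and with ZnSO4 at 8.41 and 10.6, 2.62 and 3.55 CPM. In contig_06460 the higher F1 ZnSO4 value exceeded the F2 control, although every zinc value lay below the controls of its own set. Just outside the threshold, LOC577690 had 0.504, LOC100893606 had 0.506 and contig_44612 had 0.508. Identifiers with several contigs did not always enter whole: LOC585105.2.2 had ratios of 0.65, 0.758 and 0.87 in F1, F2 and F3 while LOC585105.1.2 was a member.

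The order of the 2 forms of zinc differed between the sets. Beside control, the median member ratio with ZnO was 0.232 in F1, 0.410 in F2 and 0.442 in F3, and with ZnSO4 it was 0.346, 0.301 and 0.238. ZnO was below ZnSO4 in 38 of the 55 members in F1, but above it in 52 in F2 and in 53 in F3. The member choice averaged both forms of zinc, with 1 ZnO and 2 ZnSO4 libraries in F1, and did not use the difference between them. It did use the same zinc libraries. With the rule applied to ZnO alone, 47 features met it, 29 of them among the 55, and with ZnSO4 alone 82 did, 42 of them among the 55. Giving both forms equal weight took 62 members, of which ZnO was below ZnSO4 in 45 in F1 and above it in 58 in F2 and 59 in F3.

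**Figure D3:**
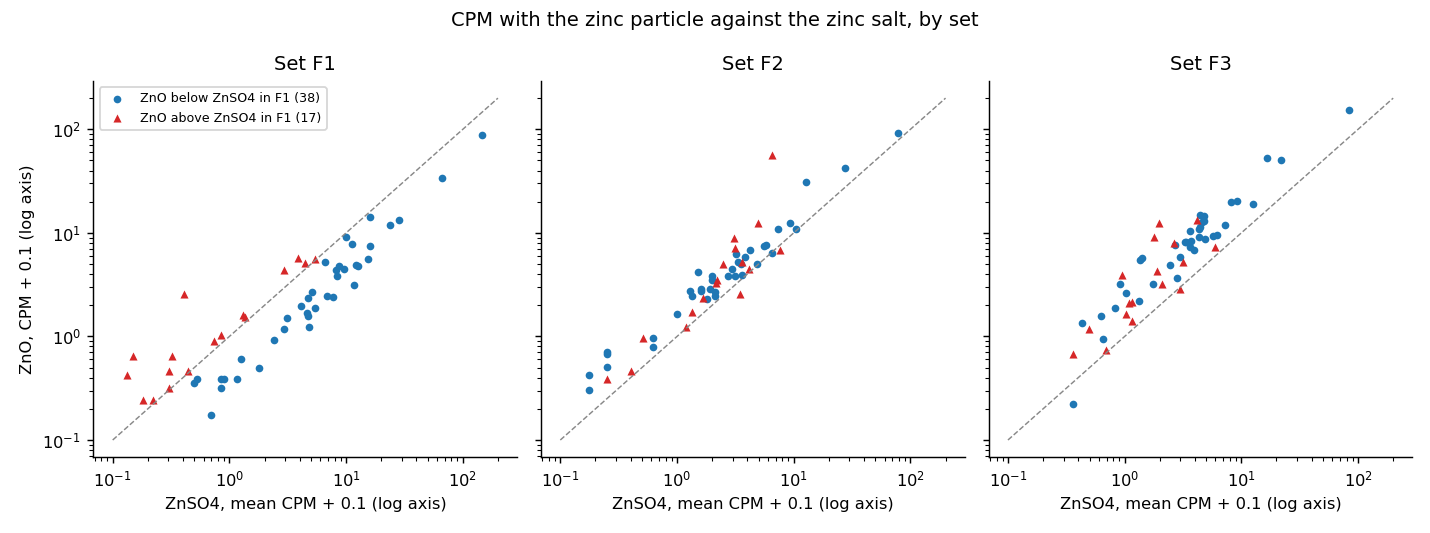
CPM plus 0.1 of the 55 members with ZnO (y axis) against the mean CPM plus 0.1 with ZnSO4 (x axis) on log axes, 1 panel per set; the dashed line marks equal values. The 38 members below the line in F1 are drawn as circles in every panel and the 17 above it as triangles, and most points of both kinds lie above the line in F2 and F3.

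Over all sets together, ZnO against ZnSO4 was tested with edgeR's quasi-likelihood test in a model with treatment and set as terms (Benjamini-Hochberg adjustment over 62865 features). The test called 49 features, or 0.0779% of all, and 0 of the 55 members. Of the members, 20 had an unadjusted p under 0.05, as did 4315 of all features. DESeq2's Wald test called 2 members, contig_50998 and LOC588375, and 191 features in all. The members' median log2 difference was 0.33, from -1.25 to 2.87, with 41 above 0 and 14 below, while the median over all features was -0.0019. The smallest adjusted p among members by edgeR was 0.0522, for contig_50998, with a log2 difference of 2.87 (SE 0.57); without the F2 ZnO library this difference was 1.38 with an adjusted p of 0.57. Without the F1 ZnO library 15 members were called among 342 features in all, and without all of set F1 27 among 300. All of these members were higher with ZnO, as were 237 and 227 of the features. Leaving out the F2 ZnSO4 library gave 6 member calls, all with ZnO the higher, among 378 features, 213 of them higher. Leaving out the F3 ZnSO4 library gave 1 member call among 426 features, 216 of them higher.

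Within sets, the difference was tested in a model with a term for each set and treatment, again by edgeR's quasi-likelihood test over all features. Its residual spread comes only from the F1 pairs, and every single library is assumed to vary like them. The same zinc libraries chose the members for a large response to zinc, which most features in the backgrounds lack. The members' counts beside those backgrounds are therefore a description. In F1, 27 members were called lower with ZnO (background 1.81% of all features) and 2 higher (background 1.66%), contig_50998 and contig_00098, and the median log2 difference was -0.96. In F2, 7 members were called higher (background 0.409%) and 0 lower (background 0.161%), with a median of 0.61. In F3, 32 were called higher (background 0.56%) and 0 lower (background 0.161%), with a median of 1.26. Without adjustment, 39, 30 and 47 members had a p under 0.05 in F1, F2 and F3, as did 8900, 4894 and 4349 of all 62865 features.

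The same members moved from one side to the other. Of the 38 members with ZnO below ZnSO4 in F1 (median log2 difference -1.16), 37 had ZnO above ZnSO4 in F2 (median 0.60) and 37 in F3 (median 1.31). Of the other 17 (median 0.34 in F1), 15 had ZnO above in F2 (median 0.61) and 16 in F3 (median 1.07). The test of the difference between sets (2 degrees of freedom, edgeR) called 36 of the 55 members, against 2.47% of all features. Taken pairwise, ZnO minus ZnSO4 was higher in F2 than in F1 for 25 members (background 1.23%) and higher in F3 than in F1 for 34 (background 0.97%), with 0 lower in either (backgrounds 1.03% and 0.805%). Between F3 and F2 it was called higher for 4 members, LOC587399, contig_03529, contig_07629 and contig_08843 (background 0.062%), and lower for contig_50998 (background 0.0668%). As the zinc libraries also chose the members, their counts beside these backgrounds are a description. contig_00098, contig_22456, contig_48998 and LOC588375 were named after their values were seen.

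contig_27289 and contig_40113 gave the smallest adjusted p among the members for that test. For contig_27289 the log2 difference of ZnO minus ZnSO4 was -0.97 (SE 0.11) in F1, 0.61 (SE 0.12) in F2 and 1.28 (SE 0.12) in F3, with adjusted p of 6.24e-07, 0.0134 and 2.49e-07 (edgeR). For contig_40113 it was -1.10 (SE 0.15), 1.28 (SE 0.17) and 1.73 (SE 0.16), with adjusted p of 1.32e-05, 3.92e-05 and 8.15e-08 (edgeR). Both contigs are the members with the smallest p of this pattern, and each ZnO value rests on 1 library per set, whose spread was not measured.

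In some members the particle was not below the salt in F1. contig_50998 was higher with ZnO in each set, by 3.00 (SE 0.30), 3.12 (SE 0.15) and 1.69 (SE 0.19) on the log2 scale in F1, F2 and F3, with adjusted p of 1.15e-07, 1.17e-12 and 3.87e-06 (edgeR). For contig_07629 the difference was 1.29 (SE 0.49, adjusted p = 0.209) in F1, where it did not pass, 1.35 (SE 0.18, adjusted p = 5.55e-05) in F2 and 2.79 (SE 0.20, adjusted p = 4.96e-09) in F3 by edgeR. The F1 value of contig_07629 rests on 15 counts with ZnO and on 6 and 7 with ZnSO4. That of contig_00098, called higher in F1, rests on 15 counts with ZnO and on 3 and 0 with ZnSO4. contig_08843 gave 0.10 (SE 0.47) in F1, -0.15 (SE 0.17) in F2 and 2.48 (SE 0.20) in F3, where alone it passed the edgeR test with an adjusted p of 1.91e-08.

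The metallothionein features, which respond to zinc, were higher with it where the members were lower. Their summed level (23 features named MT) was 11326 CPM with ZnO and 11749 and 10597 CPM with ZnSO4 in F1, 8771 and 11939 CPM in F2, and 11661 and 12276 CPM in F3. The control sums were 5793 and 5616, 3886 and 6588 CPM in the same order. A higher sum was not particular to zinc. With FeCl3 it was 6982 and 7045 CPM in F1, 5390 CPM in F2 and 7428 CPM in F3, above control in each set. With Fe2O3 it was 4428 and 4933, 3309 and 5087 CPM, below control in each set. The members stayed near control with both. ZnO was below ZnSO4 in F2 and F3 and between the 2 salt libraries in F1. In F2 and F3 the ZnO sum was thus nearer to control than the ZnSO4 sum, as was the members' ZnO median. In F1 the members' ZnO median was farther from control than that of ZnSO4, while the metallothionein sum with ZnO was not outside the salt sums. The part of metallothionein level in the members' order was not tested.

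**Figure D4:**
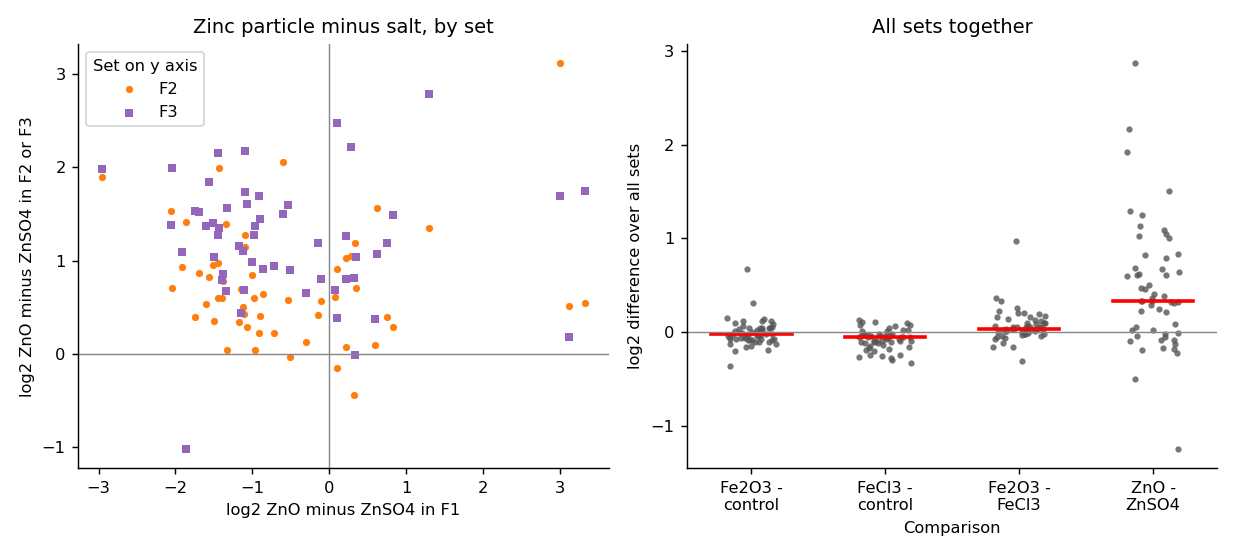
Left, log2 difference of ZnO minus ZnSO4 in F2 (circles) or F3 (squares) against that in F1 for each of the 55 members; most points lie in the upper left, below 0 in F1 and above 0 in the other sets. Right, log2 differences over all sets for 4 comparisons, 1 point per member, with the median as a bar; the medians are -0.02, -0.06, 0.04 and 0.33 from left to right.

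With iron the members stayed near control. The median ratio of Fe2O3 to control was 1.01 in F1, 0.959 in F2 and 0.992 in F3, and that of FeCl3 was 0.973, 0.981 and 0.940. Single members ranged with Fe2O3 from 0.785 to 1.67 in F1, from 0.711 to 1.59 in F2 and from 0.727 to 1.58 in F3. With FeCl3 they ranged from 0.697 to 1.20, from 0.611 to 1.26 and from 0.562 to 1.38. The mean of both iron treatments kept 45 of the 55 between 0.8 and 1.25 in every set. Over all eligible features, quartiles of that ratio were 0.964 and 1.085 in F1, 0.9345 and 1.089 in F2 and 0.936 and 1.093 in F3. No member had a ratio of 0.5 or less with either iron treatment in any set. Such a ratio was rare among the 50186 eligible features, with 0, 2 and 7 for Fe2O3 in F1, F2 and F3 and 6, 4 and 9 for FeCl3. Its absence is therefore not particular to the members. The members' iron ratios use the control libraries that chose the members, so they are given beside the zinc values and not as separate evidence.

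**Figure D5:**
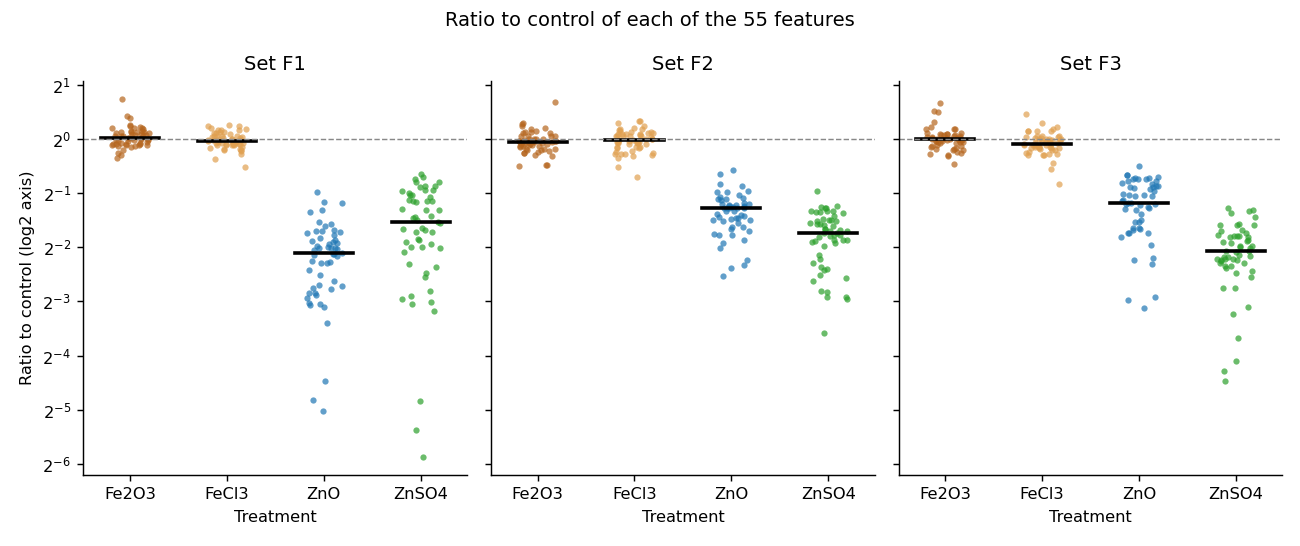
Ratio of mean CPM plus 1 to the control mean plus 1 for each of the 55 members (points) with each treatment, 1 panel per set, on a log2 axis, with the median as a black bar. Iron points scatter around 1 and zinc points lie below it; the ZnO median is under the ZnSO4 median in F1 (0.232 and 0.346) and above it in F2 (0.410 and 0.301) and F3 (0.442 and 0.238).

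By edgeR's quasi-likelihood test, Fe2O3 against control called 0 features of all tested (0%) and 0 members, with 1821 features and 1 member at an unadjusted p under 0.05 and 0 calls by DESeq2. The members' median log2 difference was -0.02, from -0.37 to 0.67. FeCl3 against control called 17 features (0.027%) and 0 members, with 2751 features and 0 members at an unadjusted p under 0.05 and 0 members by DESeq2. The members' median log2 difference was -0.06, from -0.33 to 0.13, and 43 of 55 were below 0. Both comparisons share the controls that helped choose the members, so the members' counts and signs in them are a description.

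Zinc can also be set against iron, which leaves the controls out but keeps the zinc libraries that chose the members. In each set every zinc library lay below every iron library for all 55 members, a condition that 2.93% of eligible features met. The median ratio of zinc to iron was 0.295 in F1, 0.347 in F2 and 0.351 in F3. It was at most 0.5 in all sets for 45 members, and for 61 eligible features (0.122%) with those members included. As the zinc values chose the members, these counts and shares are a description.

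The difference of Fe2O3 from FeCl3 did not enter the ratio that chose the members, although iron libraries count in the CPM floor and the model's spread comes from all 19 libraries. For it, edgeR called 1 of the 55 members, against 46 features or 0.0732% of all. LOC587958.3.3 was at 26.9 and 22.2 CPM in the F1 Fe2O3 libraries, 20.3 in F2 and 63.9 in F3. With FeCl3 it was at 11.4 and 8.03 CPM in F1, 14.2 in F2 and 37.6 in F3, and the controls were at 16.0 and 12.7, 12.4 and 45.3 CPM. Within each set, Fe2O3 lay above FeCl3 and above control. The log2 difference of Fe2O3 minus FeCl3 was 0.97 (SE 0.17) with an adjusted p of 0.0123 by edgeR, a direction in which 0.00318% of all features were called. The call was lost, with adjusted p up to 0.09, when F1 Fe2O3 replicate 1, either F1 FeCl3 library, the F2 Fe2O3 library or the F3 FeCl3 library was left out.

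With zinc, LOC587958.3.3 was at 5.19 CPM (ZnO) and 6.55 and 6.42 CPM (ZnSO4) in F1, 3.81 and 3.48 CPM in F2, and 18.8 and 12.4 CPM in F3. Each zinc value was below each control value of its set. The contigs with the same identifier were not members, and LOC587958.2.3 had zinc-to-control ratios of 1.20, 0.823 and 0.855 in F1, F2 and F3. Over the other 54 members no difference between the 2 forms of iron was called, and the median log2 difference over all 55 was 0.04, from -0.31 to 0.97.

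The members also differed between sets without zinc, as most features did. In the 8 iron libraries alone, edgeR called 40 members for F2 against F1, where 61.1% of all features were called. Of these members, 8 were higher (background 30.3%) and 32 lower (background 30.8%). For F3 against F1 it called 32 members (background 59.4%), 22 higher (background 30%) and 10 lower (background 29.4%). For F3 against F2 it called 43 (background 53%), 34 higher (background 27%) and 9 lower (background 26%). LOC589501.1.2 was higher in F3 than in F1 by 1.31 (SE 0.08) and LOC587958.3.3 by 1.72 (SE 0.12) on the log2 scale, with adjusted p of 3.89e-16 and 1.01e-14 (edgeR). These comparisons used neither control nor zinc libraries.

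Features that carry a gene name were held to the same ratios, although the name condition of the rule keeps them out of the group. They included all 3 contigs of ACAC, acetyl-CoA carboxylase, which makes malonyl-CoA in the committed step of fatty acid synthesis, with ratios of 0.312 to 0.436, as well as ARC3, HMB1 and DLX, a homeobox transcription factor of ectoderm. DLX was at 74.8 and 81.3 CPM in the F1 controls, 40.3 in F2 and 69.2 in F3. Its ZnO values were 7.58, 16.4 and 38.96 CPM in F1, F2 and F3, and with ZnSO4 at 16.8 and 16.3, 18.5 and 14.0 CPM. DLX was lower with ZnO than with ZnSO4 in F1 by a log2 difference of -1.11 (SE 0.13, adjusted p = 2.47e-06) and higher in F3 by 1.54 (SE 0.13, adjusted p = 3.67e-08) by edgeR, while in F2 the difference was -0.18 (SE 0.14).

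HMB1 was at 177.6 and 177.3 CPM in the F1 controls, 97.1 in F2 and 173.6 in F3. With ZnO it was at 17.9, 34.1 and 48.6 CPM, and with ZnSO4 at 21.8 and 20.1, 18.4 and 16.6 CPM in the same order of sets. All zinc values of HMB1 lay below its lowest control. Of all named features with a mean of at least 1 CPM, 7 of 561 met the ratios. By list, they were 2 of 8 ectoderm patterning features (DLX and HMB1), 0 of 3 for apical plate and neurons, 0 of 5 for endoderm and gut, 0 of 8 for skeleton and 0 of 26 for cilia. The lists are small and no difference between them was tested. The counts were 0 of 1 for pigment and immune cells, 0 of 24 for metallothionein and zinc transport and 0 of 6 for heat shock.

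As a description, log2(CPM + 1) centred on each set's mean was correlated with the median centred profile of the 55 members over the 19 libraries, which share their treatments. The named features most like that profile included HMB1 (Pearson r 0.986), ACAC.2.3 (0.979), ACAC.1.3 (0.972), ACAC.3.3 (0.972), ARC3 (0.971), CPT1B (0.955), ACSA (0.953), DLX (0.949) and CPT1A (0.937). The members themselves had r of 0.876 or more. CPT1B, ACSA and CPT1A had zinc-to-control ratios of 0.622 to 0.75 and so missed the threshold.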

How the data were processed

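The authors deposited a table of raw counts, whole numbers for 63389 features in 19 libraries. Per the submitters' processing notes, the tools included BWA 0.7.12-r1039, SAMtools 1.3.1 and Trim Galore 0.4.0, with no roles stated. The reference, counting program, strand setting and handling of multiple matches were not given in the sources used here. Counts were scaled to CPM on column totals for the member rule. Tests used edgeR 4.0.16 with limma 3.58.1 in R 4.3.3 (TMM, filterByExpr, quasi-likelihood test, adjusted p under 0.05) over 62865 features, in a model with treatment and set (12 residual degrees of freedom), a model with a term for each set and treatment (4 residual degrees of freedom), or the 8 iron libraries alone (62443 features). DESeq2 1.42.0 was an alternative. Only the test of ZnO against ZnSO4 over all sets was tried on simulated data, and the other models were not. Figures and ratios were made in Python 3.11.15.

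The members and gene lists were chosen with earlier results of these data known. Members printed per library were the 6 with the highest control CPM, the 6 with the lowest geometric mean ratio, members called for particle against salt, and the 3 just inside the threshold. Named features were those meeting the ratios and the 10 most alike in profile. A feature that this rule takes is not reported here.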

Additional observations from a re-analysis of the deposited data

Results flagged for a closer look

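Among 60 groups of 4 libraries examined for 14 members and the member sum, 5 held a library whose gap to the nearest other exceeded 0.829 of the group's range. For independent values of 1 distribution, chance gives about 1 in 20 groups. That rate does not hold here, since each group spans 3 sets and the same members recur in several groups. In the iron libraries 53% to 61.1% of features differed between sets. LOC589501.1.2 was set apart in the control libraries (gap 0.873 of the range) and in the Fe2O3 libraries (0.831), each time by the F3 library, at 49.0 and 48.0 CPM. LOC587958.3.3 was set apart likewise in the control (0.89) and Fe2O3 libraries (0.85), at 45.3 and 63.9 CPM in F3. The summed member CPM was set apart with Fe2O3 (0.832), by the F2 library at 1124 CPM. In each case the library is the only one of its set in that treatment.

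The difference of ZnO minus ZnSO4 between sets passed the test in 36 members, and in 10 of the 14 printed per library. The adjusted p (edgeR) was 2.18e-08 for LOC587399, 1.27e-09 for contig_27289, 1.41e-09 for contig_40113, 0.00278 for contig_50998, 0.0066 for contig_07629 and 8.8e-07 for contig_03529. It was 8.29e-07 for contig_08843, 1.19e-08 for LOC589501.1.2, 0.00291 for contig_24647 and 3.75e-05 for contig_06460. Each set has 1 ZnO library, so a set, its ZnO library and its ZnSO4 libraries cannot be told apart. The same zinc libraries chose the members, so the count of 36 is a description.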

How the results depend on the processing

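The group size depends on the rule: 34 members with 2 added to CPM in place of 1, 22 at a ratio threshold of 0.4, 127 at 0.6, 47 by ZnO alone, 82 by ZnSO4 alone, and 43 to 62 when an F1 library was left out (43 without F1 ZnO). ZnO against ZnSO4 called 49 features; DESeq2 gave 191, no set term 0, without set F1 300 and without set F3 83. A replicate block within F1, which drops the F1 ZnO library, gave 277, and leaving out 1 library 4 (F3 ZnO) to 426 (F3 ZnSO4). Members called for it, 0, were 1 with RLE size factors, 2 with DESeq2, 27 without set F1, 11 with the replicate block and 0 to 15 when 1 library was left out. Whether F1 libraries with the same replicate number belong together is not stated. Replicate 1 minus 2 correlated at -0.128 to 0.113 between treatments. Fe2O3 against FeCl3 called 46 features, but 0 with no set term, 29 without set F1, 25 without set F3 and 27 to 50 with 1 library left out; the 1 member was lost (0) with no set term and without set F1 or F3, and stayed or was lost (0 to 1) with 1 library out. Fe2O3 against control called 0 to 1 features and FeCl3 against control 11 to 22 with 1 library left out, and the latter 0 with no set term. Members called for a difference between sets were 34 to 36 when an F1 library other than ZnO was left out. The F1 ZnO library and the zinc libraries of F2 and F3 have no partner, so leaving them out gives no test. Control and iron libraries of F2 and F3 were not left out for it. The cause of these shifts was not tested. Low zinc counts limit the precision of the lowest members.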
